A study of Mus musculus with 10 samples.

Results

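SMAD3 is the transcription factor that carries the TGF-β signal from the receptor to chromatin. It binds a short DNA element weakly and is known to bind beside partner factors, among them AP-1. AP-1 is a dimer of FOS and JUN family proteins that binds its own palindromic element, often in enhancers far from gene start sites, and in fibroblasts both factors are known for their part in the response to TGF-β. The regions described here are the distal SMAD3 regions that overlap a JUN region. They are the regions of the SMAD3 table of the TGF and siHK1 libraries that the authors' annotation did not place in a promoter (within 3 kb of a start site) and that shared at least 1 bp with a JUN region carrying a peak in the TGF library. This left 7948 of 58633 SMAD3 regions, or 16.7% of the distal ones, and they are called JUN-overlapping SMAD3 regions. The other 39587 distal regions and the 11098 promoter regions are given for comparison.

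The data were CUT&Tag libraries, in which an antibody guides a transposase that cuts and tags the DNA near its target. They came from primary mouse cardiac fibroblasts, with heart given as the tissue and strain, age, sex and number of cultures not given in the labels. Both groups compared were treated with TGF-β. They were the TGF libraries and the siHK1 libraries, and the cells of the latter had also received an siRNA against Hk1, the gene of the glycolytic enzyme hexokinase 1. Whether the TGF cells received a control siRNA is not given in the labels. Each antibody (SMAD3, JUN, NFATC2 and the histone mark H3K9lc) had 1 library per condition, so no difference between the conditions could be tested, every ratio compares 2 libraries, and the knockdown itself was not measured. The SMAD3 table held 563562 reads in TGF against 399897 in siHK1, while JUN reads numbered 4215447 and 2271336. The JUN-overlapping SMAD3 regions held 52.6% of the SMAD3 reads in TGF and 54.9% in siHK1.

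Sequences of 6 of these regions are shown because they carry SMAD elements, in all but the Pmepa1 region together with an AP-1 element. The motifs, searched on both strands, were TGACTCA (AP-1), CAGAC (SMAD) and its palindromic form GTCTAGAC (palindromic SMAD), and CAGAC can lie inside neither of the others. The 3 regions first listed are examples with much SMAD3 signal and with AP-1 and SMAD motifs together, the next is one with a palindromic SMAD motif, and the last 2 have AP-1 and palindromic SMAD motifs, leaving out untranslated regions and regions that also had TGF peaks in the NFATC2 and H3K9lc tables. Each is the central 200 bp of the region on the plus strand of GRCm38, with every match in capitals:
Clba1, chr12:112797654-112797853: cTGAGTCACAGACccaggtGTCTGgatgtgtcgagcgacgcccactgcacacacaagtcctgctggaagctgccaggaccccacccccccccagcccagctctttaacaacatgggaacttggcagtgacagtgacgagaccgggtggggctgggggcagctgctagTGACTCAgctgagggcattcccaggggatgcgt
Zfp469, chr8:122145103-122145302: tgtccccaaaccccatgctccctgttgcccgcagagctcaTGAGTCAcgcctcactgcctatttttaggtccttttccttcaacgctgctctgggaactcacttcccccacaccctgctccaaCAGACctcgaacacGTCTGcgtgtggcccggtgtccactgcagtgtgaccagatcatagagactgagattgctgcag
Hs6st3, chr14:119127795-119127994: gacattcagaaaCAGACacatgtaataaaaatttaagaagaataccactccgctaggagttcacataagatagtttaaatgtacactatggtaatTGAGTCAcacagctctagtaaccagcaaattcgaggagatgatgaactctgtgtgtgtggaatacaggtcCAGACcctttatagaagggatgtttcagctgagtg
Pmepa1, chr2:173258025-173258224: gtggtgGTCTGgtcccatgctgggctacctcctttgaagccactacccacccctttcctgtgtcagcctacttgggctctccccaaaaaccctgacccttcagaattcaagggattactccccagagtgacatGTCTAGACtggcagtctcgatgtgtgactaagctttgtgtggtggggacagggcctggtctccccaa
Csf1, chr3:107776516-107776715: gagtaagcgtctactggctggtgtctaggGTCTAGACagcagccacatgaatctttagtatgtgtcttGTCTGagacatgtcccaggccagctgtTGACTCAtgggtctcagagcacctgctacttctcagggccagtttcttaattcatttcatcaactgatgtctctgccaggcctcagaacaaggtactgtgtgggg
Rin3, chr12:102252210-102252409: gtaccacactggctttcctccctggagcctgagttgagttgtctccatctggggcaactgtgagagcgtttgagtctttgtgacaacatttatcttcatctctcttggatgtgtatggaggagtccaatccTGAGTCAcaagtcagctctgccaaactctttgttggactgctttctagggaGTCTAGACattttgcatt

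The region assigned to Clba1 lay in an intron and held 2 AP-1 and 2 SMAD motifs, with an AP-1 motif at base 2 of the window directly followed by a SMAD motif at base 9. It had 37 SMAD3 reads in TGF and 35 in siHK1. The Zfp469 region had 28 and 25 reads and the Hs6st3 region 28 and 18. The intronic region of Pmepa1, a gene known to be induced by TGF-β and to restrain its signal, held the palindrome at base 134 and had 22 reads in TGF and 38 in siHK1. The region near Csf1, the gene of a macrophage growth factor, held all 3 motifs and had 10 and 16 reads, and the Rin3 region had 7 and 15. Before any scaling for the lower siHK1 total, siHK1 reads thus exceeded TGF reads in 3 of these 6 regions and were fewer in 3. On the normalized log2 scale of the authors the siHK1 value was higher in 5 of them, by 0.25 (Zfp469) to 1.32 (Rin3), and lower by 0.22 at Hs6st3.

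The JUN-overlapping SMAD3 regions carried AP-1 motifs more often than the other SMAD3 regions. An AP-1 motif stood in the central 200 bp of 990 of them, or 12.5% (95% exact binomial interval 11.7% to 13.2%). The share was 2.74% (2.58% to 2.90%) in other distal regions, 4.20% (3.83% to 4.59%) in promoter regions and 4.33% over all SMAD3 regions. Windows of the same length 5 kb to either side of the JUN-overlapping regions held the motif in 3.77% (3.48% to 4.08%). Since the members were chosen by a JUN peak, and JUN binds this element, the difference describes the choice as well as the regions. The intervals here and below cover counting error over regions only, and regions are not replicates of a condition.

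The short SMAD motif differed less between the classes than AP-1 did. It stood in 43.4% (42.3% to 44.5%) of JUN-overlapping regions, in 36.8% (36.3% to 37.2%) of other distal regions, in 39.5% of promoter regions, in 38.2% of all SMAD3 regions and in 37.9% of the windows 5 kb away. The palindromic SMAD motif was rare, in 41 JUN-overlapping regions or 0.516% (0.370% to 0.699%), against 0.149% (0.113% to 0.192%) in other distal regions, 0.198% in promoter regions and 0.208% over all SMAD3 regions. AP-1 and SMAD motifs stood together in 1.88% of all SMAD3 regions and in 1.90% of promoter regions, and pairing beyond the single-motif shares was not tested. They did so in 5.94% (5.43% to 6.48%) of JUN-overlapping regions and in 1.05% (0.955% to 1.16%) of other distal ones. Where both were present, the median gap between them was 36 bp in the first class and 41 bp in the second, and they lay within 20 bp of each other in 34.5% (30.2% to 39.0%) and 27.6% (23.3% to 32.1%), intervals that overlap. The median GC content of the central windows was 49.0% in JUN-overlapping regions and 44.0% in other distal ones, and its part in the motif shares was not tested.

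**Figure D1:**
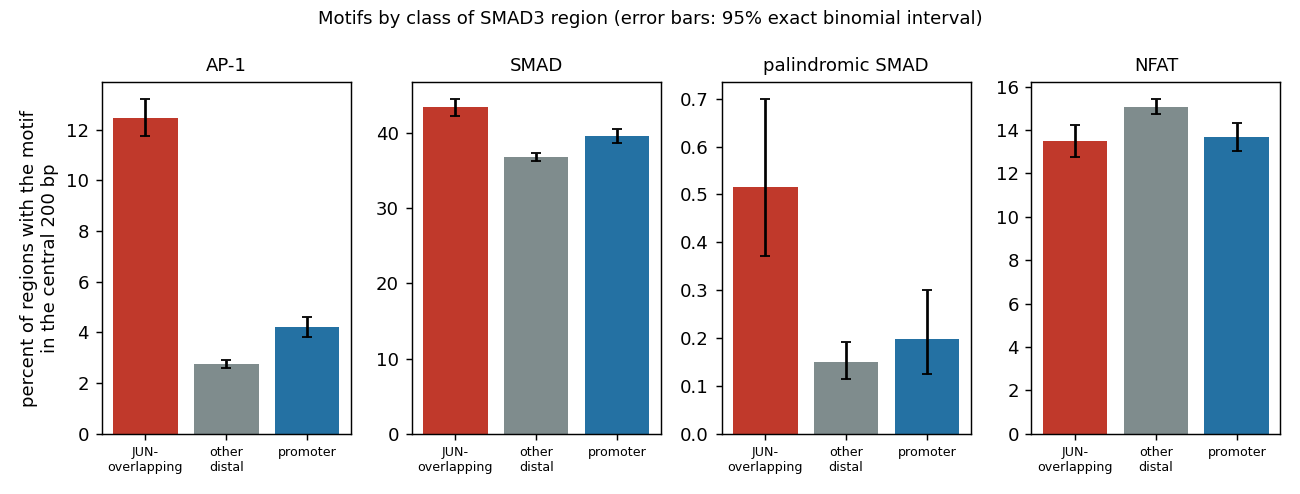
Percent of SMAD3 regions with a motif in their central 200 bp (y axis, a scale of its own in each panel) for JUN-overlapping distal, other distal and promoter regions, with 95% exact binomial intervals as error bars. The AP-1 share of JUN-overlapping regions (12.5%) stands above the other classes (2.74% and 4.20%), and the NFAT shares lie between 13.5% and 15.1%.

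Motif positions within the regions were broad. In 20 bp bins about the centre of the JUN-overlapping SMAD3 regions, AP-1 motifs numbered 13.0 per 1000 regions at the centre, 21.4 at 120 bp on the left and 19.8 at 140 bp on the right, and 11.2 and 10.3 at 300 bp on the left and right. The motif was thus less frequent at the middle of the SMAD3 region than on its shoulders. Widening the window to 400 bp brought the share of JUN-overlapping regions with an AP-1 motif to 27.1% and that of other distal regions to 5.87%. About the centres of the 7838 JUN regions that these SMAD3 regions overlapped, the bins from 100 bp left to 60 bp right held between 20.9 and 25.8 motifs per 1000 regions (23.2 at the centre). The midpoints of SMAD3 region and JUN region lay a median of 117 bp apart, and 44.4% of the pairs lay within 100 bp.

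**Figure D2:**
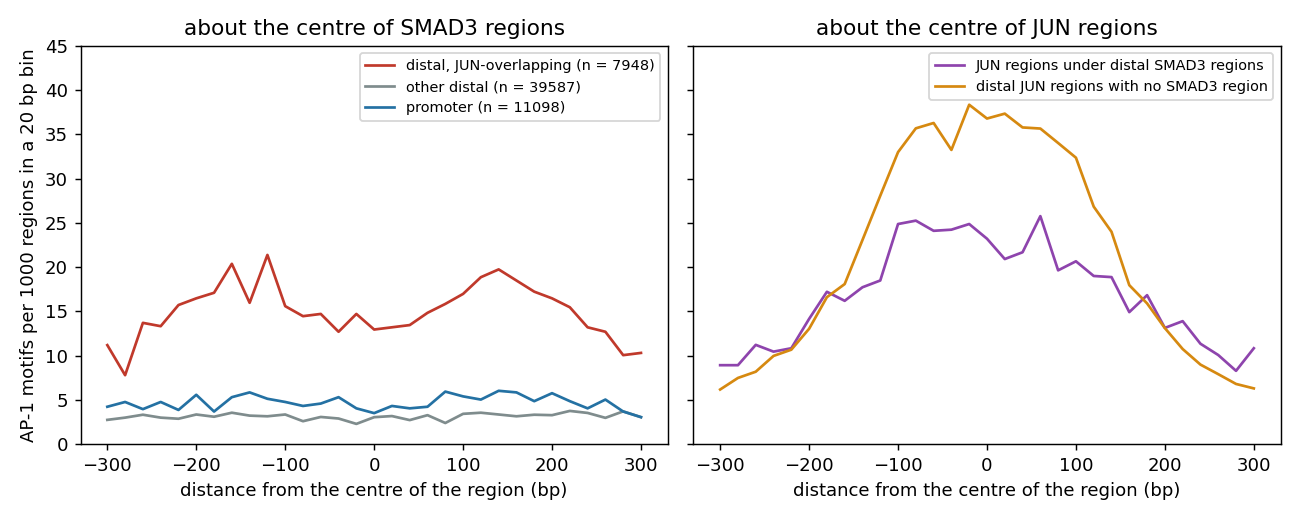
AP-1 motifs per 1000 regions in 20 bp bins (y axis) against distance from the centre of the region in bp (x axis), for 3 classes of SMAD3 region (left panel) and for JUN regions with and without a SMAD3 region (right panel). JUN-overlapping SMAD3 regions dip to 13.0 at the centre between shoulders of 21.4 and 19.8, other distal regions stay between 2.3 and 3.8, and JUN regions hold more motifs in the middle than at 300 bp.

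The JUN regions under the SMAD3 regions were wide and strong. They had a median width of 649 bp and median JUN reads of 72 in TGF and 36 in siHK1. The 39786 distal JUN regions with a TGF peak and no SMAD3 region had a median width of 432 bp and 34 and 17 reads. SMAD3 regions lay over more of the JUN regions as JUN signal grew: by quintile of the mean normalized JUN level, 10.1%, 9.84%, 11.4%, 15.2% and 35.1% of distal JUN regions with a TGF peak were overlapped. At every JUN level the overlapped regions held an AP-1 motif less often than those with no SMAD3 region. In the lowest quintile the shares were 4.05% (2.89% to 5.49%) and 18.5% (17.7% to 19.3%), and in the highest 29.8% (28.3% to 31.4%) and 43.4% (42.1% to 44.6%). Over all levels they were 20.2% (19.3% to 21.1%) and 30.9% (30.4% to 31.3%). The part of the wider regions in this was not tested.

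Among the JUN-overlapping SMAD3 regions the AP-1 share followed JUN signal. From the lowest to the highest quintile of JUN level it was 4.07%, 8.21%, 11.9%, 16.9% and 21.3%, and the palindromic SMAD share was 0.313%, 0.379%, 0.566%, 0.566% and 0.755%. The median SMAD3 reads were 8, 4, 4, 4 and 7 in TGF, with no order by JUN level, and 6, 6, 6, 7 and 10 in siHK1, highest at the highest JUN level. Their median SMAD3 log2 ratios, siHK1 minus TGF, were −0.24, 0.52, 0.85, 0.96 and 0.85, below 0 at the lowest JUN level. SMAD3 and JUN levels had a Spearman correlation of 0.12 over the 7948 regions, which share 1 library pair per antibody.

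SMAD3 reads per region were few. The median was 5 reads in TGF (quartiles 2 and 11) and 7 in siHK1 (quartiles 4 and 12), against 4 and 2 in other distal regions and 4 and 4 in promoter regions. In 4.68% of the JUN-overlapping regions TGF reads were 0, and in 2.05% siHK1 reads were 0. In other distal regions these shares were 9.46% and 22.3%. A peak in the siHK1 library alone was called in 4807 JUN-overlapping regions (60.5%), in TGF alone in 1911 (24.0%), in both in 1207 (15.2%) and in neither in 23. In other distal regions the order was turned, with 55.8% in TGF alone and 41.9% in siHK1 alone, and 2.27% had a peak in both. Promoter regions had 59.2% in siHK1 alone, 33.2% in TGF alone and 7.31% in both. Over all SMAD3 regions these shares were 47.7%, 47.2% and 4.98%. Without regions that had TGF peaks in both the NFATC2 and H3K9lc tables, 9.12% of the JUN-overlapping regions had a SMAD3 peak in both libraries.

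The normalized SMAD3 values were on balance higher in siHK1 than in TGF. The median log2 ratio (siHK1 minus TGF, from the normalized log2 values the authors deposited) was 0.65 (order-statistic interval over regions 0.62 to 0.67), with quartiles of −0.29 and 1.48. The median was −0.62 in other distal regions, 0.58 in promoter regions and −0.16 over all SMAD3 regions. At least 2-fold lower were 11.1% (10.4% to 11.8%) of the JUN-overlapping regions, where 35.8% of all SMAD3 regions were. At least 2-fold higher were 39.1% (38.0% to 40.1%), where 27.5% of all SMAD3 regions were. In other distal regions 44.8% were lower and 22.2% higher, and in promoter regions 21.4% and 37.8%, so the JUN-overlapping regions resembled the promoter regions in the higher share and lay below them in the lower share. Scaling to equal totals moved the median over all SMAD3 regions to 0.01 and no scaling moved it to −0.49. The JUN-overlapping median was then 0.86 or 0.36, with 9.34% lower and 46.2% higher or 17.8% lower and 31.6% higher. The gap between the JUN-overlapping and other distal medians was 1.28 as deposited. Equal totals and no scaling differ by 1 constant on every log2 ratio, so both had to give the same gap, 1.26. With at least 10, 20 and 50 reads over both libraries the gap as deposited was 1.27, 0.74 and 0.24.

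**Figure D3:**
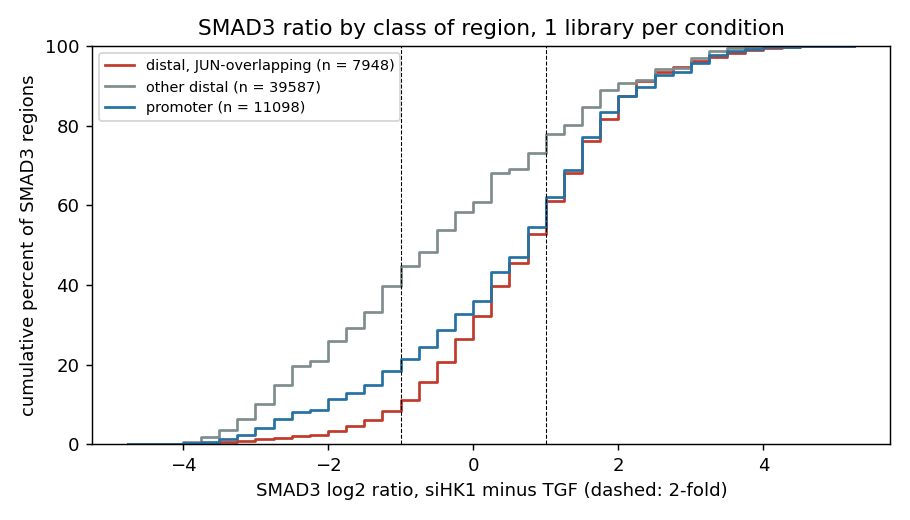
Cumulative percent of SMAD3 regions (y axis) up to a SMAD3 log2 ratio, siHK1 minus TGF (x axis, dashed lines at 2-fold), by class. The other distal regions reach 44.8% at 2-fold lower, the JUN-overlapping regions 11.1% and the promoter regions 21.4%, and the curves of the last 2 run together above 2-fold higher.

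This direction depended on how many reads a region had. With at least 10 reads over both libraries (62.5% of the JUN-overlapping regions) the median ratio was 0.47, with at least 20 reads (2262 regions) 0.083, and with at least 50 reads (652 regions) −0.19. The same minima gave −0.80, −0.65 and −0.43 in other distal regions. By quintile of the mean normalized level over all SMAD3 regions, the medians of the JUN-overlapping regions were 2.33, 1.34, 1.02, 0.96 and 0.35 from low to high, and those of other distal regions −2.15, −1.02, −0.28, −0.27 and −0.50. In every quintile and under every minimum the JUN-overlapping median was above the other distal one.

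**Figure D4:**
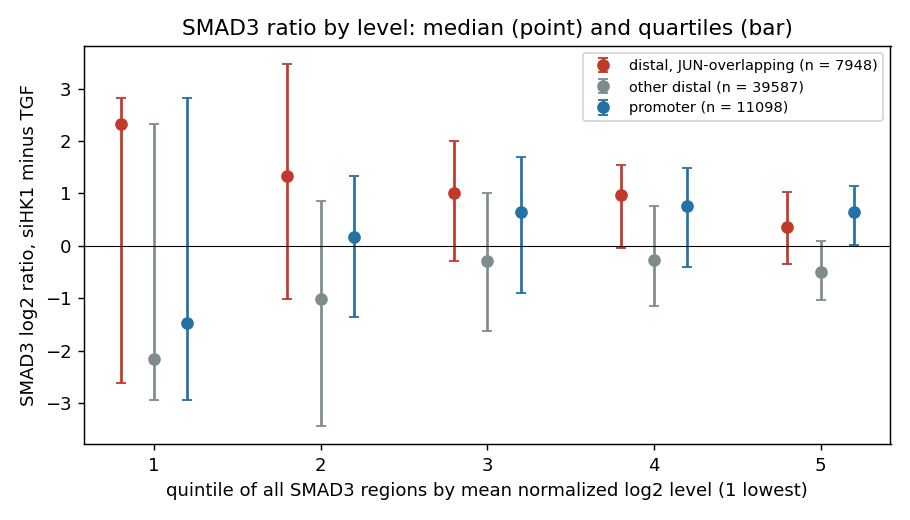
Median (points) and quartiles (bars) of the SMAD3 log2 ratio, siHK1 minus TGF (y axis), by quintile of mean normalized level over all SMAD3 regions (x axis), for 3 classes. The JUN-overlapping medians go from 2.33 in the lowest quintile to 0.35 in the highest and stay above those of other distal regions, which are −2.15 and −0.50 there.

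The peak calls bear on the same ratio, since a region listed for a peak in 1 library alone is high there by its choice. JUN-overlapping regions with a peak in siHK1 alone had a median ratio of 1.30, those with a peak in TGF alone −0.89 and those with peaks in both −0.02. The matching medians of other distal regions were 1.02, −1.85 and −0.32. Restricting the JUN-overlapping regions to the 3118 with a SMAD3 peak in TGF turned the median to −0.49. AP-1 motifs were most frequent where siHK1 alone had a peak, in 14.6% (13.6% to 15.6%), against 10.5% (9.13% to 11.9%) with a TGF peak alone and 7.13% (5.74% to 8.72%) with both.

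A small group of regions held most of the reads. TGF peaks in both the NFATC2 and the H3K9lc table were found at 857 of the JUN-overlapping regions (10.8%) and at 1.28% of other distal regions. They held 82.0% of the TGF reads and 73.0% of the siHK1 reads of the JUN-overlapping regions, with medians of 35 and 21 reads. Their median ratio was −0.27, AP-1 motifs stood in 2.45% (1.52% to 3.72%) of them, and a median of 68.6% of their bases were soft-masked repeat sequence. The 5481 JUN-overlapping regions with neither an NFATC2 nor an H3K9lc peak in TGF had medians of 4 and 6 reads, a median ratio of 0.85, AP-1 motifs in 14.2% and 9.46% masked bases. Without the 857 regions the median ratio of the rest was 0.81, 11.0% were lower, 43.1% higher, and AP-1 motifs stood in 13.7%.

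The reads per kb turned on the same group. Over all JUN-overlapping regions they were 90.8 in TGF and 67.3 in siHK1, which is 5.62 and 7.55 times those of other distal regions (16.2 and 8.90). Without regions that had TGF peaks in both further tables, they were 19.9 and 22.1 per kb, or 1.29 and 2.56 times those of other distal regions treated alike. At 200 or more reads in both libraries stood 88 JUN-overlapping regions, 1 other distal region and 10 promoter regions. Of the 88, 84 also had an NFATC2 peak and 85 an H3K9lc peak in TGF, and 2 had an AP-1 motif.

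The 6 regions of highest SMAD3 level show what this group holds. The first, on chr2:98666240-98667313, assigned to Lrrc4c, had 32661 reads in TGF against 19534 in siHK1, and 81.3% of it was masked. Its normalized ratio was 0.36, while with equal totals of reads it was 0.843 times as high in siHK1, so its direction depends on the scaling. The next 3 lay on chr1:24611639-24616136, assigned to Col19a1, with between 9489 and 15784 TGF reads and between 9978 and 16569 siHK1 reads. All their 25-base words also occur in the mitochondrial genome. The other 2 lay in the masked sequence at the start of chromosome 9, assigned to Mir101c, with 8897 and 8306 reads in TGF and 4634 and 4068 in siHK1. Unlike the sequences above, the central 120 bases of the first region and of the highest Col19a1 region held neither motif:
Lrrc4c, chr2:98666717-98666836: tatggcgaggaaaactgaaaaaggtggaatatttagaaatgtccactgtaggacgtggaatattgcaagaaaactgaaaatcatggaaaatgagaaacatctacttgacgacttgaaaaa
Col19a1, chr1:24615184-24615303: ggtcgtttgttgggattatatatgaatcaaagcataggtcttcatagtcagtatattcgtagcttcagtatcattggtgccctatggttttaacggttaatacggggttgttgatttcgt

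Mitochondrial-like sequence, in which at least 10% of the 25-base words of a region occur in the mitochondrial genome, was found in 16 JUN-overlapping regions and in 2 other SMAD3 regions. The 16 regions held 40366 TGF reads and 41916 siHK1 reads, and their ratios on the deposited scale ran from 0.009 to 1.10. The lowest had 183 and 122 reads, which scaling to equal totals leaves slightly lower in siHK1. The 3 Col19a1 regions were past 2-fold higher on the deposited scale and 1.46 to 1.48 times as high with equal totals. The 17 JUN-overlapping regions assigned to Mir101c on chromosome 9 (3000003 to 3032953) ran from −0.47 to 0.034 on the deposited scale. The 2 strongest of them were 0.734 and 0.690 times as high in siHK1 with equal totals. Leaving out the mitochondrial-like regions left the median ratio of the JUN-overlapping regions at 0.65. Where reads of such copies come from cannot be told apart in these tables.

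**Figure D5:**
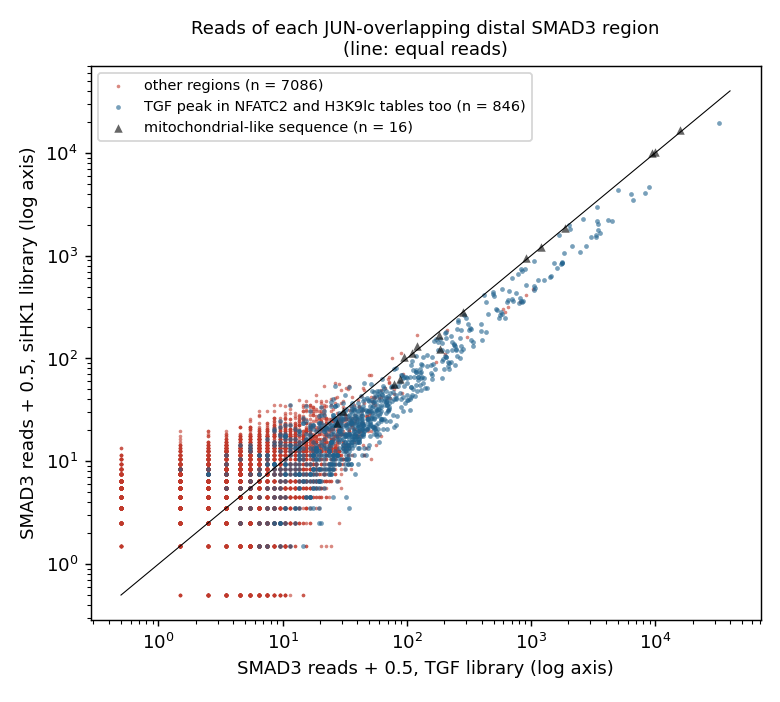
SMAD3 reads plus 0.5 in the siHK1 library (y axis, log scale) against the TGF library (x axis, log scale) for each JUN-overlapping distal SMAD3 region, with equal reads on the line. Mitochondrial-like regions lie near the line, regions with TGF peaks in the NFATC2 and H3K9lc tables fill the upper range below it, and the remaining regions, with medians of 5 and 6 reads, spread on both sides.

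Overlap with the other antibodies was more frequent than in other distal regions. An NFATC2 region with a TGF peak was met by 25.8% (24.8% to 26.8%) of the JUN-overlapping regions and by 5.10% (4.88% to 5.32%) of other distal regions. Promoter regions also stood above other distal ones in this, at 14.5%, and the share over all SMAD3 regions was 9.68%. An H3K9lc region with a TGF peak was met by 16.0% (15.2% to 16.9%) and 5.43% (5.20% to 5.65%). That share was 5.69% in promoter regions and 6.91% over all SMAD3 regions. A TGF peak in H3K9lc without one in NFATC2 was met by 5.25% of JUN-overlapping and 4.15% of other distal regions. For NFATC2 without H3K9lc the shares were 15.0% and 3.81%. All NFATC2 regions with a TGF peak that JUN-overlapping regions met had medians of 16 reads in TGF against 8 in siHK1. Their median log2 ratio was −0.36 with equal totals. All NFATC2 regions with a TGF peak had a median of −1.18, those met by other distal regions −0.74 and those met by promoter regions −0.36. For H3K9lc the medians were 43 and 23 reads and −0.05, against −0.29 over all regions with a TGF peak. Without the regions that also had an NFATC2 peak in TGF, the H3K9lc median was −0.27 (417 regions), near that of all regions. These ratios carry the choice of a TGF peak, and no siHK1 peak was asked for.

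JUN and SMAD3 ratios were set side by side in the same regions. The 7838 JUN regions had a median JUN log2 ratio of −0.15 (−0.16 to −0.13) on the deposited scale, −0.092 with equal totals and −0.98 with no scaling. At least 2-fold lower were 839 of them (10.7%), where 13.7% of all JUN regions were, and at least 2-fold higher 28 (0.357%), where 5.66% of all JUN regions were. Of the distal JUN regions with a TGF peak, chosen the same way, 16.4% were lower and 0.740% higher. They were chosen for a JUN peak in TGF, which by itself favours regions high in TGF. With the JUN reads under each SMAD3 region summed, 833 JUN-overlapping regions were at least 2-fold lower in JUN, and of these 145 (17.4%) were lower in SMAD3 and 275 (33.0%) higher, beside 11.1% and 39.1% over all JUN-overlapping regions. Their median SMAD3 ratio was 0.25, against 0.67 in the 7087 regions with a JUN difference under 2-fold. In the 28 JUN-overlapping regions at least 2-fold higher in JUN it was 0.12 (−0.63 to 0.95), with 17.9% lower and 28.6% higher in SMAD3. Of the 7087, 39.8% were higher in SMAD3 and 10.3% lower, close to the shares over all members. The Spearman correlation of the 2 ratios was 0.01 over all members and 0.17 over the 2262 with at least 20 SMAD3 reads.

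The strongest JUN regions were those of the high-read group. On chr2:98666245-98667321 JUN had 15742 reads in TGF against 13901 in siHK1, and the 3 JUN regions assigned to Col19a1 had from 8987 to 13576 in TGF and from 5851 to 8232 in siHK1. Among JUN regions above the median level, the one lowest in siHK1 against TGF, in an intron and assigned to Ipcef1 on chr10:6987188-6988059, had 191 and 18 JUN reads (log2 ratio −2.49), while SMAD3 there had 4 and 9 reads. The one highest in siHK1 was a region assigned to Tmem171, with 74 and 94 JUN reads (1.17) and 6 and 5 SMAD3 reads. SMAD3 reads at both were under 10 in each library.

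Among JUN-overlapping regions above their median level, 4 of the 5 that were lowest in siHK1 against TGF were mostly repeat sequence. A region assigned to Fermt1 on chr2:133111974-133112658 had 28 reads in TGF against 2 in siHK1, a fold of 0.101 with equal totals (exact counting interval 0.0116 to 0.399), and 15 and 2 JUN reads. Regions assigned to Mex3c, Snord116l1, Hao2 and D16Ertd519e had from 19 to 34 reads in TGF and from 2 to 4 in siHK1. Those 4 were masked over 91.6% to 100% of their length and had TGF peaks in the NFATC2 and H3K9lc tables, while the Fermt1 region had neither. JUN reads were fewer in siHK1 at all 5, with log2 ratios from −1.90 to −0.63.

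Of the 5 highest in siHK1, 4 lay in introns and 1 was distal intergenic, and from 7.18% to 25.8% of their length was masked. A region in an intron at Eln, the gene of elastin, on chr5:134771954-134772714 had 2 reads in TGF against 19 in siHK1, a fold of 13.4 with an interval of 3.23 to 119. A region in an intron of Septin9, a cytoskeletal GTPase, on chr11:117314759-117315204 had the same counts. Regions at Spats2, Camta1 (a calmodulin-binding transcription activator) and 4930572O13Rik each had 2 reads in TGF and 17 or 18 in siHK1. JUN reads under the Eln region were 49 and 13, those under Septin9 147 and 85, those under Spats2 26 and 4, those under Camta1 222 and 68, and those under 4930572O13Rik 70 and 11. JUN was thus at least 2-fold lower in siHK1 at Eln, Spats2 and 4930572O13Rik, where SMAD3 was higher. These SMAD3 ratios were chosen as the extremes of the list and each rests on 2 reads in TGF.

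Targets and feedback genes of the SMAD pathway held 40 JUN-overlapping regions at 14 of the 22 listed genes. Of the 40, 21 were at least 2-fold higher in siHK1, 5 lower and 14 neither, with a median ratio of 1.05. That is 52.5% higher and 12.5% lower, beside 39.1% and 11.1% over all JUN-overlapping regions. Pmepa1 had 8 of them, the most in this list, and all 8 were at least 2-fold higher, though 3 had 0 or 1 read in TGF. The strongest, in intron 1 on chr2:173263491-173264462, had 28 reads in TGF against 56 in siHK1, a fold of 2.82 with an interval of 1.76 to 4.61. The Pmepa1 region printed above had a fold of 2.43 (1.40 to 4.32). The other 6 had 0, 1, 1, 2, 7 and 11 reads in TGF and 8, 8, 9, 5, 15 and 18 in siHK1 in that order. JUN log2 ratios at the 2 strongest were 0.12 and 0.04, from 481 and 274 reads and from 331 and 181 reads.

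The inhibitory SMADs had few regions, to be read beside the 11.1% lower and 39.1% higher over all JUN-overlapping regions. At Smad6, which blocks receptor signalling, 3 of 6 regions were at least 2-fold lower and 1 higher, with a median ratio of −0.92. Its SMAD3 reads were 13, 10, 12, 16, 3 and 7 in TGF and 9, 1, 6, 5, 7 and 1 in siHK1. At Smad7, the other inhibitory SMAD, 2 of 5 regions were higher and none lower, with reads of 4, 4, 6, 2 and 7 in TGF and 6, 14, 9, 10 and 4 in siHK1. The difference between the genes was not tested. Ltbp2, of the latent TGF-β binding protein family, had 2 regions, both higher, the stronger with 11 and 35 reads. Regions of Ski and Skil, corepressors of SMADs, had at their strongest 11 and 14 reads and 3 and 6 reads. Smad3 itself had 1 region in intron 1 with 16 and 19 reads. Of the 2 regions at Tgfbr2, the type II receptor, the stronger had 13 and 4 reads, and the other was at least 2-fold higher.

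Genes of the extracellular matrix held 41 JUN-overlapping regions at 16 of 21 listed genes, 28 of them at least 2-fold higher (68.3%) and 2 lower (4.88%), with a median ratio of 1.25, beside 39.1% and 11.1% over all JUN-overlapping regions. None had more than 14 reads in TGF or 23 in siHK1. The strongest region of Col1a1, a chain of type I collagen, on chr11:94928736-94929167 had 10 reads in TGF against 23 in siHK1, and 590 and 278 JUN reads. That of Col1a2, the other chain of the same collagen, had 8 and 14. At Col5a1 4 of 6 regions and at Col4a1 5 of 6 were higher, and all 3 at Eln were. JUN was at least 2-fold lower at 5 of the 41 and higher at none, with a median JUN ratio of −0.14, where 10.5% of all JUN-overlapping regions were lower in JUN and 0.352% higher.

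The contractile list held 23 regions at 5 of 12 genes, 13 higher (56.5%) and 1 lower (4.35%), beside 39.1% and 11.1% over all JUN-overlapping regions. Myh9, the heavy chain of a nonmuscle myosin, had 9 of them, 7 higher and none lower. The strongest, on chr15:77798930-77799482 in intron 3, had 11 and 25 reads (fold 3.20, interval 1.52 to 7.21), and a neighbour on chr15:77800599-77801059 with an AP-1 motif had 8 and 26 (4.58, 2.01 to 11.7). The lower one was at Tpm1, a tropomyosin, with 8 and 2 reads. Fibroblast transcription factors held 40 regions at 12 of 16 genes, 18 higher (45%) and 3 lower (7.5%), shares near the 39.1% and 11.1% over all JUN-overlapping regions. The strongest Runx1 region, masked over 100% of its length, had 37 and 20 reads, while 3 of the 4 Runx1 regions were higher and none lower. The strongest region of Tead1 had 8 and 21 reads, and that of Meox1, a factor of activated fibroblasts, 5 and 14 with JUN reads of 206 and 29.

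Smaller lists gave few regions. With so few, their counts are not set apart from the 39.1% higher and 11.1% lower over all JUN-overlapping regions. AP-1 genes held 6 regions at 3 of 12 genes, 3 higher and none lower, among them a region near Fos with 30 and 18 reads and 1 in an intron near Jun with 13 and 14. Glycolysis genes held 8 regions at 5 of 10 genes, 4 higher and 2 lower. Hk1, the siRNA target, had 1 region in intron 3 on chr10:62299877-62300508 with 12 reads in TGF and 20 in siHK1. A last list of 5 genes held 7 regions at 2 of them, 2 higher and 1 lower. The strongest was the 1 at Axin2 with 133 and 65 reads. The other 6 were at Smyd3, where the strongest had 5 and 18 reads. Among marker genes of other heart cells, 2 of 8 cardiomyocyte genes held 4 regions, 3 higher and none lower. At 4 of 7 endothelial genes lay 8 regions, 4 higher and none lower. The 7 macrophage genes held none, while 5 other distal regions lay there. These tables measure binding and not expression, so the markers do not show which cells were present.

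The edge of the overlap rule was gradual. The 293 JUN-overlapping regions that shared 50 bp or less with the JUN region had medians of 3 reads in each library, a median ratio of 0.23 and AP-1 motifs in 5.12%. The 327 other distal regions within 100 bp of such a JUN region, just outside the rule, also had 3 and 3 reads, with a median ratio of 0.20 and AP-1 motifs in 3.67%. The overlap was mostly large: 85.0% of the JUN-overlapping regions had at least 50% of their length inside a JUN region and 52.6% lay wholly inside.

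The JUN-overlapping regions lay closer to start sites than other distal regions on balance. Distal intergenic were 3472 of the 7948 (43.7%) and 19806 of the 39587 other distal regions. Introns held 49.3% and 43.3%, and exons 5.11% and 4.52%. The median distance to a start site was 22.1 kb in the first and 36.2 kb in the second, and 12.4% and 27.8% lay over 100 kb away. They were also wider, with medians of 341 bp and 265 bp. They were assigned to 4786 genes, of which 3123 had 1 region and 183 had 5 or more.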

How the data were processed

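The deposited tables were used as they stand: for each region they hold read counts per library, a mark for a peak in each library and normalized log2 values per library, all made by the authors. The submitters' processing notes name BWA 0.7.12 and mm10, while the study's methods name Bowtie2, MACS2 and GRCm39. All 26962 transcripts of the SMAD3 table found in GENCODE vM21 had the same coordinates there, every region fitted inside the chromosomes of GRCm38, and therefore GRCm38 was used, counted from 1. The library titled SI was taken as siHK1 from the table named in its label.

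The log2 values the authors deposited were straight lines in log2(count + 0.5), with slopes of 0.932 (SMAD3 TGF) and 0.961 (JUN TGF) and 1 for the siHK1 libraries. The ratio was siHK1 minus TGF, and 2-fold or more was counted as lower or higher. For NFATC2 and H3K9lc, counts were scaled to equal totals. The authors' own columns of ratios, p-values and calls were not used. With 1 library per condition no test was possible. Totals are reads in listed regions and not library depths, which are unknown here.

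Shares carry exact (Clopper-Pearson) 95% intervals and folds of counts an exact binomial interval, which cover counting error only (PCR can copy 1 molecule many times). Motifs were searched in the central 200 bp, and no chromosome 18 sequence was shown, with Python 3.11.15 and pysam 0.24.0. Overlap and ratio steps were tested on simulated data, the ratio step only with equal totals and for SMAD3 regions of at least 20 reads. Ratios on the deposited scale and in regions of fewer reads were not tested in this way. The members, gene lists and named regions were chosen with earlier results of these data known. Named were the 6 regions of highest level, the 5 lowest and 5 highest ratios above the median level, the 4 strongest JUN regions with the lowest and highest ratio above their median, the regions of listed genes, and the 5 genes with most regions, of which 1, like 1 of the motif examples, is not reported here. All regions of Pmepa1, Smad6, Smad7 and Myh9, the motif examples and the regions of observation were added after their values were seen. A library with no antibody in its labels, 2 columns matching no sample, and the untreated library were not used here. Alternatives were other overlap rules, scalings, read minima, fold limits and motif windows.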

Additional observations from a re-analysis of the deposited data

How the results depend on the processing

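In all, 113 alternatives were computed, some of them chosen after seeing the data (read minima of 20 and 50, peaks in both libraries, counts of 0 set to 3 reads, and leaving out regions with TGF peaks in NFATC2 and H3K9lc, of many reads or mitochondrial-like). By the interval over regions, where a value has one, 76 values were counted as moved, 3 changed sign and 34 were not moved. A number of regions was counted as moved past 1.5 times, and ratios of reads per kb have no interval. No paired analysis was possible because each antibody had 1 library per condition, and leaving out a library leaves no ratio. Few reads per region limit every ratio.

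The median SMAD3 log2 ratio of the JUN-overlapping regions changed sign with a SMAD3 peak required in TGF (−0.49, 3118 regions), in both libraries (−0.020) and with at least 50 reads (−0.19). It was 0.083 at 20 reads, 0.47 at 10 reads, 0.56 above the median level of the table, 0.86 with equal totals, 0.84 with a pseudocount of 1 as well, 0.36 with no scaling, 0.62 with counts of 0 set to 3 reads, 0.70 with at least 50% of the region shared, 0.69 by midpoint, 0.81 with a JUN peak in both libraries, 0.61 with any JUN region and 0.81 without regions peaking in NFATC2 and H3K9lc. In the same settings, the share at least 2-fold lower was 27.5% and 2.82% for the peak requirements, 4.60%, 8.93% and 8.64% at 50, 20 and 10 reads, 8.28% above the median level, 9.34%, 7.79% and 17.8% for the scalings, 9.57% with counts of 0 set to 3, and 9.64%, 9.74%, 8.50% and 12.1% for the overlap rules. The share higher was 3.01% and 6.79% for the peak requirements, 5.52%, 19.6% and 31.5% at 50, 20 and 10 reads, 36.0% above the median level, 46.2%, 44.8% and 31.6% for the scalings, 40.7% with at least 50% shared, 43.3% with a JUN peak in both libraries and 43.1% without regions peaking in NFATC2 and H3K9lc. At 1.5-fold the shares were 19.3% lower and 51.6% higher, and at 4-fold 3.40% and 12.5%. The causes were not tested, beyond the choice of peaks and of regions that the settings make.

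The AP-1 share was 14.0%, 13.7% and 15.2% with at least 50% shared, by midpoint and with a JUN peak in both libraries, 9.17% and 7.13% for SMAD3 peaks in TGF and in both, 9.33% and 2.15% at 20 and 50 reads, 13.7% without regions peaking in NFATC2 and H3K9lc, and 5.96%, 27.1% and 23.0% in the central 100 bp, 400 bp and whole region. The SMAD share was 26.1%, 65.7% and 60.9% in these windows and 45.4% without regions peaking in NFATC2 and H3K9lc. The median JUN ratio was −0.092 with equal totals, −0.084 with a pseudocount of 1, −0.98 with no scaling and −0.051 above the median level. Overlap with H3K9lc was 18.7% with any listed region, 14.0% with at least 50% shared and 10.6% with peaks in both libraries, and with NFATC2 35.9%, 20.3% and 11.5%. The ratio of reads per kb to other distal regions was 1.07 in TGF and 2.82 in siHK1 for medians, 8.17 and 6.14 among regions peaking in that library, 1.29 and 2.56 without regions peaking in NFATC2 and H3K9lc, and 1.73 and 2.84 without regions of 200 or more reads.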

Other observations

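Some genes carried long series of JUN-overlapping SMAD3 regions. Their counts stand beside 39.1% higher, 11.1% lower and 12.5% with an AP-1 motif over all such regions, and none was tested. Dusp10, a phosphatase that acts on the JNK and p38 kinases, had 10, with 6 higher and none lower and an AP-1 motif in 4. Their reads ran from 0 to 18 in TGF and from 5 to 15 in siHK1. Of the other genes with 10 regions, Apba2 had 2 lower and 1 higher (median ratio −0.72), Foxl1 2 lower and 2 higher (0.15), and E130006D01Rik 4 higher and none lower (0.71).

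Hrh1, the gene of a histamine receptor, had 11 regions on chromosome 6 with 5 higher and none lower, where 39.1% of all JUN-overlapping regions were higher, and all ratios on the deposited scale were above 0 (from 0.35 to 1.99). The strongest had 121 and 168 reads. None of the 11 held an AP-1 motif, and 9 of them were masked repeat sequence over 59.8% to 93.5% of their length, where the median of all JUN-overlapping regions was 10.7%. The 14 regions assigned to Pisd-ps2 on chromosome 17 had ratios from −1.08 to −0.33 and the 12 assigned to Olfr161 on chromosome 16 from −1.21 to −0.26, and 13 of the 14 and 9 of the 12 had TGF peaks in the NFATC2 and H3K9lc tables too. The causes of these patterns were not tested.

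Motifs of other factors were also counted in the central windows of JUN-overlapping and other distal SMAD3 regions. GGAATG (TEAD) stood in 12.1% (11.4% to 12.9%) and 10.3% (9.97% to 10.6%), GGAAAA (NFAT) in 13.5% (12.7% to 14.2%) and 15.1% (14.7% to 15.4%) and GGCGCC (GC-rich SMAD) in 1.09% (0.878% to 1.35%) and 0.561% (0.490% to 0.639%), intervals that do not overlap. The GC-rich SMAD share was highest in promoter regions, at 6.06% (5.62% to 6.52%). For TGTGGTT (RUNX), in 4.38% (3.94% to 4.85%) and 4.57% (4.36% to 4.78%), they overlap. TGACGTCA (CRE), in 15 and 34 regions, and TTGCGCAA (C/EBP), in 3 and 3, were too few to compare. Over all SMAD3 regions the shares of TEAD, RUNX, NFAT, GC-rich SMAD, CRE and C/EBP motifs were 10.4%, 4.35%, 14.6%, 1.67%, 0.188% and 0.0205%.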
